A study of Arabidopsis thaliana with 12 samples.

Results

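Chloroplast peroxiredoxins and the proteins that keep them reduced were followed in Arabidopsis thaliana seedlings of 2 lines, as 7 genes chosen by gene identifier out of 27655 measured. They are 4 peroxiredoxins, namely 2CPA (AT3G11630), 2CPB (AT5G06290), PRXQ (AT3G26060) and PRXIIE (AT3G52960), together with NTRC (AT2G41680), TRX x (AT1G50320) and SRX (AT1G31170). The groups were flu1-5 ex1 in light, flu1-5 ex1 in dark, flu1-1 ex1 in light and flu1-1 ex1 in dark, with 3 libraries each of total RNA. Seeds of all groups were stratified for 2 days at 4 °C. Seedlings aged 6 days that had grown in continuous light at 22 °C received 4 h of darkness (dark), or 4 h of darkness and then 1 h of light (light). Every group thus carried a flu mutation and an ex1 mutation. FLU holds back chlorophyll synthesis in darkness, and a flu mutant accumulates a chlorophyll precursor that produces singlet oxygen upon illumination. EX1 encodes EXECUTER1, a plastid protein of singlet oxygen signalling. No wild type, no single mutant and no library kept dark for the further 1 h were analysed, so effects of singlet oxygen, light and elapsed time cannot be told apart. About 100 seedlings were pooled for each replicate, per the file headers. No label states separate cultures for the replicates, and p-values here therefore reflect only how far these libraries spread, possibly for technical reasons.

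Peroxiredoxins are thiol peroxidases that reduce hydrogen peroxide and organic peroxides with a reactive cysteine, which must then be reduced again. In the chloroplast the abundant 2-Cys peroxiredoxins, 2CPA and 2CPB, receive electrons mainly from NTRC, a reductase with its own thioredoxin domain that draws on NADPH. TRX x is a plastid thioredoxin that can also reduce them, and SRX, sulfiredoxin, repairs 2-Cys peroxiredoxins whose cysteine has been overoxidised. PRXQ is a monomeric peroxiredoxin associated with thylakoids, and PRXIIE is a type II peroxiredoxin of the stroma that can take electrons from glutaredoxin.

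Levels are in TPM, a relative unit that accounts for how long each transcript is, and totalled 929954 to 935223 in each library. TPM keeps no number of reads, so depth is unknown, and in whole seedlings fewer expressing cells and less RNA per cell cannot be told apart. FLU (AT3G14110) checked the lines: it stood at 13.2 to 17.0 TPM in the 6 flu1-5 ex1 libraries and at 184 to 197 TPM in the 6 flu1-1 ex1 libraries. EX1 (AT4G33630) was detected in both lines, at 81.0 and 45.3 TPM in light and dark flu1-5 ex1 and at 51.0 and 40.1 TPM in light and dark flu1-1 ex1. Of the 6 tissue markers, the green-tissue gene RBCS1A averaged 15681 to 17807 TPM and the root gene PYK10 698 to 977 TPM, whereas the root hair genes COBL9 and EXP7 averaged under 1 TPM in every group. No pair of libraries was identical, and libraries of a group correlated at Pearson r of 0.9960 to 0.9964 over genes. All 7 genes were listed with the same transcript in the tables of both lines and passed the filter of a mean of at least 1 TPM in all 5 comparisons.

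All 7 genes were well expressed, and their order of abundance was nearly the same in the 4 groups. 2CPA was the most abundant, at 917 ± 28.7 TPM in light and 1070.2 ± 4.31 TPM in dark in flu1-5 ex1, and at 895 ± 18.1 TPM in light and 973 ± 16.9 TPM in dark in flu1-1 ex1 (SD, n = 3 each). It ranked between place 82 and place 102 among the genes of at least 1 TPM. PRXQ and TRX x followed, then 2CPB and PRXIIE, then NTRC, and SRX was lowest at 76.1 to 83.5 TPM. The ranges of neighbours in this order did not overlap, except for PRXIIE and 2CPB in dark and light flu1-5 ex1 and in dark flu1-1 ex1. In light flu1-1 ex1 PRXIIE stood above 2CPB with no overlap. 2CPA made up 55.2 ± 0.75% and 55.0 ± 0.32% of the summed level of the 4 peroxiredoxins in light and dark flu1-5 ex1. In light and dark flu1-1 ex1 its share was 53.8 ± 0.31% and 53.6 ± 0.77% (SD, n = 3 each).

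**Figure D1:**
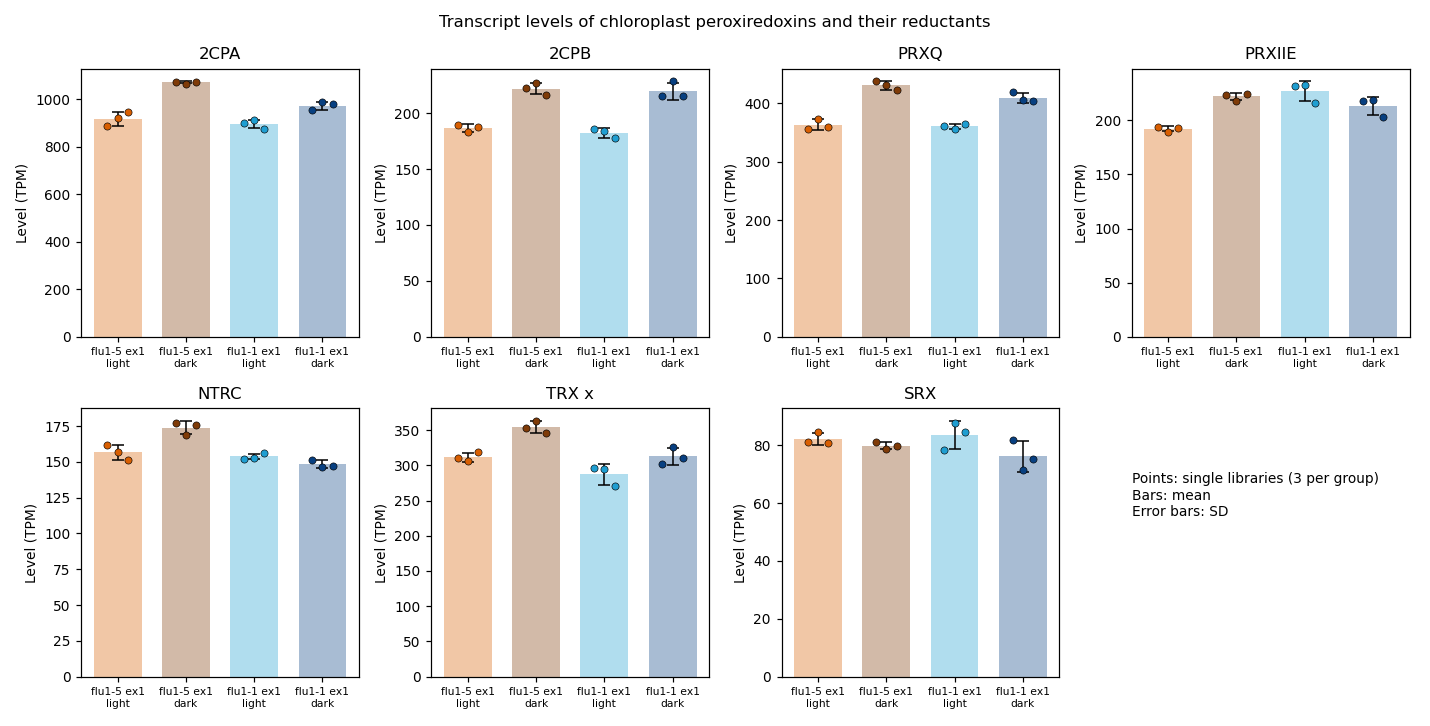
Level in TPM (vertical axis, starting at 0) of each gene in the 4 groups; points are single libraries, bars are means and error bars are SD over 3 libraries. 2CPA stands at 895 to 1070.2 TPM and SRX at 76.1 to 83.5 TPM, and the light bars are lower than the dark bars for 2CPA, 2CPB, PRXQ and TRX x in both lines.

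The first question was how these transcripts changed after 1 h of light in flu1-5 ex1, the line with little FLU transcript. All 4 peroxiredoxins fell, as did NTRC and TRX x, whereas SRX did not pass the test. Relative to the dark mean, NTRC fell by 9.80%, the least of them, and 2CPB fell by 15.8%, the most. Thus 6 of 7 genes were called lower and 0 higher, and the same 6 had ranges that did not overlap between light and dark. Over all 18145 genes tested 29.3% were called lower and 38.4% higher (limma on log2(TPM + 1), Benjamini-Hochberg adjusted p under 0.05), and 31.5% had light libraries all below the dark libraries. The calls were 6973 higher and 5324 lower, and after quantile normalization 5649 higher and 7016 lower. Their median log2 change was -0.21 for the 7 and 0.05 for all genes tested. Green-tissue markers moved the same way: all 3 fell, with log2 changes of -0.15 for RBCS1A, -0.52 for LHCB1.3 and -0.38 for PSBO1, and the root marker PYK10 fell too (-0.35). The 3 green markers summed to 27246 to 28605 TPM in light and 34414 to 34590.2 TPM in dark libraries. The sum of the 3 root markers, almost all of it PYK10, was 696 to 704 TPM in light and 853 to 925 TPM in dark. The part of tissue makeup in these changes was not tested.

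2CPA measured 887, 919 and 944 TPM in light, against 1071, 1065 and 1074 TPM in dark. The dark libraries were almost equal and all stood above the light libraries. Its log2 change was -0.22 (SE 0.028, limma adjusted p = 0.000117), and -0.15 after quantile normalization, still called (limma adjusted p = 0.00185). 2CPB, its less abundant partner, measured 189.6, 183 and 187 TPM in light, against 223, 227 and 216 TPM in dark. The groups were again apart, with a log2 change of -0.25 (SE 0.030, limma adjusted p = 9.2e-05). Because the pair are close copies, reads may be divided between them unevenly by the estimate, and their sum was examined as well. The sum stood at 1103 ± 27.5 TPM in light and 1292 ± 1.91 TPM in dark (SD, n = 3 each), a log2 change of -0.23 (SE 0.026, limma adjusted p = 5.54e-05). 2CPB held 16.9 ± 0.59% of that sum in light and 17.2 ± 0.38% in dark.

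PRXQ measured 356, 374 and 360.4 TPM in light flu1-5 ex1, against 438, 431 and 424 TPM in dark. Its log2 change was -0.24 (SE 0.029, limma adjusted p = 8.25e-05). PRXIIE measured 194, 189.6 and 193 TPM in light, against 224, 218 and 225 TPM in dark. All light libraries lay below all dark ones for both genes, and PRXIIE changed by -0.21 on the log2 scale (SE 0.028, limma adjusted p = 0.000177).

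Of the reductants in flu1-5 ex1, NTRC measured 162, 157 and 152 TPM in light, against 177, 169 and 176 TPM in dark. Its change was the smallest of those called, at -0.15 on the log2 scale (SE 0.036, limma adjusted p = 0.00533). TRX x measured 309.8, 306 and 318 TPM in light, against 353, 362 and 345 TPM in dark, and its log2 change was -0.18 (SE 0.030, limma adjusted p = 0.0006). Both genes had light libraries below every dark library. SRX measured 81.1, 84.5 and 80.7 TPM in light, against 81.1, 78.7 and 79.8 TPM in dark, so its groups overlapped. Its log2 change was 0.04 (95% interval -0.04 to 0.12, limma adjusted p = 0.335), and -0.06 after quantile normalization. The summed 2-Cys peroxiredoxins stood at 13.4 ± 0.51 times the SRX level in light and 16.2 ± 0.23 times in dark (SD, n = 3 each).

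In flu1-1 ex1, the line with abundant FLU transcript, the change over the same 1 h of light was examined in the same way. 2CPA, 2CPB, PRXQ and TRX x fell, and PRXIIE, NTRC and SRX had values that did not pass the test. Thus 4 of 7 genes were called lower and 0 higher, where 28.6% of the 18042 genes tested were called lower and 44.0% higher (limma, adjusted p under 0.05). These were 7942 higher and 5155 lower, and after quantile normalization 6386 higher and 6751 lower. The 4 genes called also had light libraries all below the dark ones, as had 30.1% of all genes. The median log2 change was -0.12 for the 7 and 0.12 for all genes tested. Among the markers, LHCB1.3 and PSBO1 fell (-0.68 and -0.42), PYK10 rose (0.20), and RBCS1A was not called (-0.04). The green markers summed to 29332 to 30256 TPM in light and 37389 to 38767 TPM in dark libraries. The root sum, again almost all PYK10, was 957 to 996 TPM in light and 847 to 860.02 TPM in dark.

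2CPA measured 898, 912 and 876 TPM in light flu1-1 ex1, against 954, 986 and 978 TPM in dark. The ranges were apart, with a log2 change of -0.12 (SE 0.025, limma adjusted p = 0.0023). 2CPB measured 185, 184 and 178 TPM in light, against 215, 228 and 215 TPM in dark. Its groups were further apart relative to their level, at -0.27 on the log2 scale (SE 0.034, limma adjusted p = 0.0001). Summed, the pair had 1078 ± 21.9 TPM in light and 1192 ± 22.8 TPM in dark (SD, n = 3 each). The log2 change of the sum was -0.15 (SE 0.025, limma adjusted p = 0.000739). The share of 2CPB in the sum was 16.9 ± 0.17% in light and 18.4 ± 0.39% in dark, without overlap. Set against SRX, the sum was 12.9 ± 0.79 times as high in light and 15.7 ± 1.38 times in dark.

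PRXQ measured 361, 356 and 364 TPM in light flu1-1 ex1, against 419.7, 405 and 404 TPM in dark, a log2 change of -0.18 (SE 0.026, limma adjusted p = 0.000196). TRX x measured 296, 295 and 269.98 TPM in light, against 301, 326 and 311 TPM in dark. The TRX x libraries were close, and its log2 change of -0.12 (SE 0.044, limma adjusted p = 0.0311) lost its call when 1 of several libraries was left out. The adjusted p was 0.106 without dark replicate 2, 0.0614 without dark replicate 3, 0.0857 without light replicate 3, and 0.0503 with no filter on low levels.

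PRXIIE measured 232, 233 and 216 TPM in light flu1-1 ex1, against 218, 219 and 203 TPM in dark. Its libraries overlapped between the groups, with a log2 difference of 0.09 (95% interval -0.0045 to 0.18, limma adjusted p = 0.0785). After quantile normalization it was 0.03 (limma adjusted p = 0.530). With replicate number as a block the 0.09 was called (limma adjusted p = 0.0183). Leaving out 1 library moved the value both ways: it was 0.05 (limma adjusted p = 0.254) without dark replicate 3 and 0.12 (limma adjusted p = 0.0225), past the threshold, without light replicate 3. NTRC measured 152, 153 and 156 TPM in light, against 151, 146 and 147 TPM in dark. These groups did not overlap, as for the 45.8% of all genes whose light libraries all stood higher, but the log2 difference was only 0.05 (95% interval -0.01 to 0.11, limma adjusted p = 0.124), and it was -0.01 after quantile normalization. SRX measured 78.2, 87.6 and 84.7 TPM in light, against 81.9, 71.4 and 75.2 TPM in dark, with overlap. Its log2 difference was 0.13 (95% interval -0.0021 to 0.27, limma adjusted p = 0.0704), or -0.0032 after quantile normalization. Without dark replicate 1 or light replicate 1 the SRX adjusted p was 0.0176 and 0.0265. Quantile normalization moved the median of all genes by 0.12 in flu1-5 ex1 and by 0.14 in flu1-1 ex1, so these changes are relative to other genes.

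**Figure D2:**
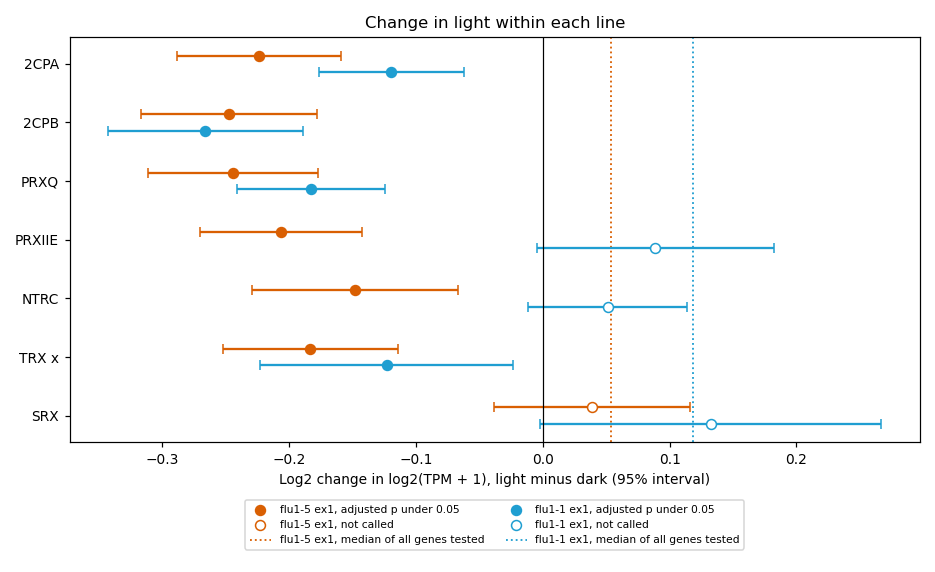
Log2 change of each gene, light minus dark, in flu1-5 ex1 (orange) and flu1-1 ex1 (blue), with 95% intervals; filled points were called, and dotted lines mark the median of all genes tested. For PRXIIE and NTRC the interval lies below 0 in flu1-5 ex1 and includes 0 in flu1-1 ex1, SRX includes 0 in both, and 2CPB stands at -0.25 and -0.27.

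The next comparison asked whether the light response differed between the lines, as an interaction over all 12 libraries. It was more negative in flu1-5 ex1 for PRXIIE, NTRC and 2CPA, and none of the 7 was called in the other direction. Among 17830 genes tested 18.3% were called lower and 11.3% higher, so 3 of 7 stands beside a background of 18.3%. The median over all genes was -0.06 and that of the 7 genes was -0.09. The PRXIIE difference was the largest of the 7, at -0.30 (SE 0.050, limma adjusted p = 0.000667), and 17.0% of all genes had a lower value. For NTRC it was -0.20 (SE 0.044, limma adjusted p = 0.00392), with 27.3% of genes lower. Both calls held under each of the 19 alternatives run, with differences of -0.33 to -0.26 for PRXIIE and -0.22 to -0.18 for NTRC. PYK10 had a difference of the same sign, at -0.54 (limma adjusted p = 3.97e-07), and so had RBCS1A, at -0.11 (limma adjusted p = 0.0366), a call lost in 10 of 19 alternatives. The difference of LHCB1.3 had the other sign, at 0.16 (limma adjusted p = 0.00137), a call lost in 1 of 19 alternatives. That of PSBO1 was 0.04 and not called. The part of these markers in the PRXIIE and NTRC results was not tested.

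The 2CPA difference of -0.10 (SE 0.037, limma adjusted p = 0.0495) was close to the median of all genes. Its call was lost in 15 of 19 alternatives, where the adjusted p reached 0.115, and the sum of 2CPA and 2CPB was not called (-0.08, limma adjusted p = 0.0940). Its call was lost without any 1 of 10 of the 12 libraries, the exceptions being light replicate 3 of either line. 2CPB itself differed by 0.02 (95% interval -0.08 to 0.11, limma adjusted p = 0.794), a value that was -0.01 without dark replicate 2 of flu1-1 ex1 and -0.0010 without light replicate 3 of flu1-1 ex1. The remaining genes were not called. PRXQ differed by -0.06 (95% interval -0.14 to 0.02) and by 0.04 after quantile normalization. TRX x also differed by -0.06 (95% interval -0.18 to 0.06), or 0.00097 after quantile normalization, and SRX by -0.09 (95% interval -0.25 to 0.06).

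The lines were then compared directly within each condition. In dark, NTRC, TRX x and 2CPA were higher in flu1-5 ex1, NTRC by 17.1% and TRX x by 13.1% of the flu1-1 ex1 mean. In all, 3 of 7 were called higher and 0 lower, where 12.9% of 17471 genes were called higher and 5.65% lower (limma, adjusted p under 0.05). These were 2246 higher and 987 lower, and after quantile normalization 1594 higher and 1435 lower. The median log2 difference was 0.07 for the 7 genes and 0.04 over all genes. NTRC averaged 174 ± 4.53 TPM in dark flu1-5 ex1 and 148 ± 2.57 TPM in dark flu1-1 ex1 (SD, n = 3 each). Its log2 difference was 0.23 (SE 0.031, limma adjusted p = 0.00112), and 86.6% of all genes had a lower value. TRX x averaged 354 ± 8.58 TPM in flu1-5 ex1 and 313 ± 12.2 TPM in flu1-1 ex1, a log2 difference of 0.18 (SE 0.034, limma adjusted p = 0.00782). The 2CPA difference was 0.14 (SE 0.023, limma adjusted p = 0.0035), and 0.21 after quantile normalization. For these 3 genes and PRXQ every flu1-5 ex1 library exceeded every flu1-1 ex1 library, as for 24.9% of all genes. The 3 calls held under each of 13 alternatives. RBCS1A also stood higher in flu1-5 ex1 in dark, by 0.14 on the log2 scale (limma adjusted p = 0.00552), while LHCB1.3 and PSBO1 were lower (-0.44 and -0.09, limma adjusted p = 1.78e-06 and 0.0482). The part of these 3 green markers was not tested.

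The other genes did not pass the test in dark. PRXQ stood higher in each flu1-5 ex1 library, at 431 ± 7.05 TPM, against 409.6 ± 8.74 TPM in flu1-1 ex1, but its log2 difference of 0.07 (95% interval 0.01 to 0.13) missed the threshold (limma adjusted p = 0.1001). 2CPB averaged 222 ± 5.11 TPM in flu1-5 ex1 and 219.7 ± 7.61 TPM in flu1-1 ex1. Its difference was 0.01 (95% interval -0.06 to 0.09), or -0.00056 without dark replicate 2 of flu1-5 ex1. PRXIIE and SRX differed by 0.06 (95% interval -0.02 to 0.14) and 0.07 (95% interval -0.04 to 0.18), with overlapping libraries.

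In light PRXIIE was lower in flu1-5 ex1, at 192 ± 2.47 TPM, against 227 ± 9.27 TPM in flu1-1 ex1 (SD, n = 3 each). Every flu1-5 ex1 library lay below every flu1-1 ex1 library, with a log2 difference of -0.24 (SE 0.035, limma adjusted p = 0.00074) that was called under each of 13 alternatives. PYK10 was lower as well, at 698 ± 4.92 TPM in flu1-5 ex1 and 977 ± 19.5 TPM in flu1-1 ex1, a log2 difference of -0.48. Of the green markers LHCB1.3 was lower too (-0.28, limma adjusted p = 1.69e-05), and RBCS1A (0.03) and PSBO1 (-0.05) were not called. The part of these markers in the PRXIIE difference was not tested. TRX x was higher, at 311 ± 6.36 TPM in flu1-5 ex1 and 287 ± 14.8 TPM in flu1-1 ex1, with a log2 difference of 0.12 (SE 0.040, limma adjusted p = 0.0454), or 0.19 after quantile normalization and 0.07 without light replicate 3 of flu1-1 ex1. The TRX x call was lost in 7 of 13 alternatives, among them leaving out any light library other than replicate 1 of flu1-1 ex1, where the adjusted p was 0.0510 to 0.133. Thus 1 of 7 genes was called higher and 1 lower, where 17.2% of 17845 genes were called higher and 20.0% lower. Ranges that did not overlap were found for 22.5% of all genes in the higher direction, as for TRX x, and for 27.1% in the lower, as for PRXIIE.

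NTRC, higher in flu1-5 ex1 in dark, stood at 157 ± 5.18 TPM in light flu1-5 ex1 and 154 ± 1.98 TPM in light flu1-1 ex1, with overlap. Its log2 difference in light was 0.03 (95% interval -0.05 to 0.10, limma adjusted p = 0.562). 2CPA and 2CPB each differed by 0.03 (95% interval -0.03 to 0.10 for 2CPA and -0.04 to 0.10 for 2CPB). PRXQ differed by 0.01 (95% interval -0.05 to 0.08), and SRX by -0.02 (95% interval -0.13 to 0.08), or 0.01 without light replicate 2 of flu1-1 ex1. After quantile normalization PRXQ was called, at 0.11 (limma adjusted p = 0.00918), and without light replicate 2 of flu1-5 ex1 it stood at -0.01. The dark and light comparisons and the interaction use the same libraries and do not add separate support to each other.

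**Figure D3:**
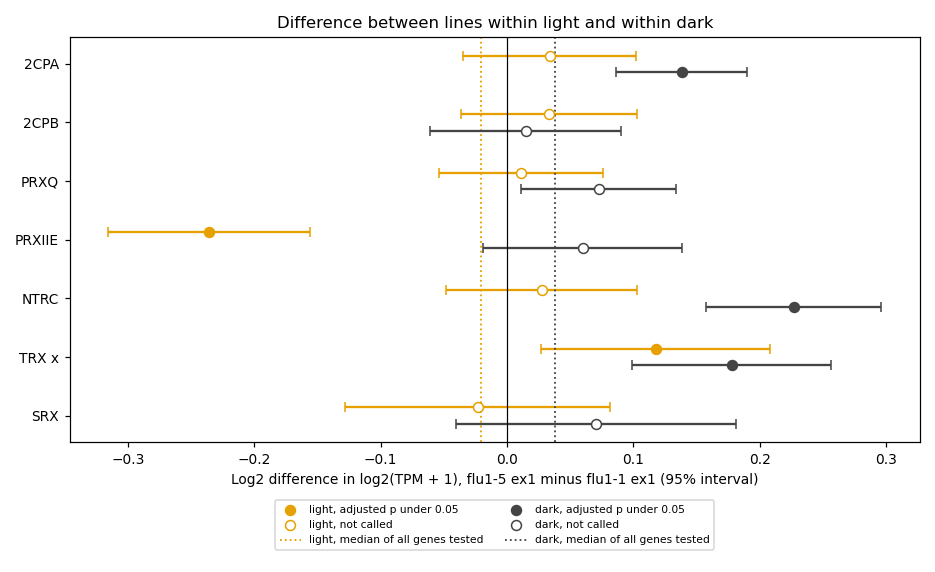
Log2 difference of each gene, flu1-5 ex1 minus flu1-1 ex1, within light (yellow) and within dark (grey), with 95% intervals; filled points were called and dotted lines mark the median of all genes tested. NTRC, TRX x and 2CPA are to the right in dark, and PRXIIE is to the left in light.

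The PRXIIE to NTRC ratio set these genes side by side. It was 1.23 ± 0.042 in light and 1.28 ± 0.014 in dark in flu1-5 ex1, and 1.48 ± 0.078 in light and 1.44 ± 0.057 in dark in flu1-1 ex1 (SD, n = 3 each). The ratio of summed 2-Cys peroxiredoxins to NTRC was 7.05 ± 0.41 in light and 7.44 ± 0.20 in dark in flu1-5 ex1. In flu1-1 ex1 it was 7.01 ± 0.22 in light and 8.04 ± 0.29 in dark. These ratios of transcript levels say nothing about protein or its redox state.

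The wider redox network of these peroxidases was described with 4 lists holding 40 other genes. Plastid thioredoxins and related proteins moved in both directions, over a much wider range than the peroxiredoxins. In flu1-5 ex1, 6 of 17 tested rose and 10 fell, where 38.4% of all genes rose and 29.3% fell. Their median log2 change was -0.18, against 0.05 for all genes. In flu1-1 ex1, 6 rose and 7 fell, where 44.0% of all genes rose and 28.6% fell, and their median was -0.07, against 0.12 for all genes. ACHT3 had a mean under 1 TPM and was not tested. ACHT4, an atypical plastid thioredoxin, rose to 106 ± 5.93 TPM in light flu1-5 ex1, against 48.3 ± 4.27 TPM in dark, and to 117 ± 1.35 TPM in light flu1-1 ex1, against 41.6 ± 5.88 TPM in dark. Its relative ACHT5 fell to 4.54 ± 0.42 TPM in light flu1-5 ex1, against 25.1 ± 0.41 TPM in dark, and to 9.83 ± 0.46 TPM in light flu1-1 ex1, against 25.1 ± 2.71 TPM in dark. The interaction called 2 of the 17 higher and 4 lower, where 11.3% of all genes were called higher and 18.3% lower. The response of ACHT5 differed between the lines by -0.98 (SE 0.11, limma adjusted p = 1.97e-05). That of ACHT4 differed by -0.36 (limma adjusted p = 0.0481), a call lost in 13 of 19 alternatives.

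WCRKC1, a thioredoxin-like plastid protein, fell to 70.6 TPM in light flu1-5 ex1, against 185 TPM in dark, and to 56.8 TPM in light flu1-1 ex1, against 195 TPM in dark. TRXF2, an f-type thioredoxin of the kind that activates carbon-fixation enzymes, fell to 54.6 TPM in light flu1-5 ex1, against 78.3 TPM in dark, and to 47.6 TPM in light flu1-1 ex1, against 89.3 TPM in dark. Both responses were less negative in flu1-5 ex1, each with a difference of 0.38 (limma adjusted p = 0.000489 for WCRKC1 and 9.75e-05 for TRXF2). TRXZ, a thioredoxin of the plastid transcription machinery, fell in flu1-5 ex1 (log2 change -0.18, limma adjusted p = 0.00336) and rose in flu1-1 ex1 (0.20, limma adjusted p = 0.005). Its responses differed by -0.37 (limma adjusted p = 0.000499).

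Among 9 reductases and electron donors, 3 rose and 3 fell in flu1-5 ex1, and 4 rose and 3 fell in flu1-1 ex1, with medians of -0.07 and -0.10. These counts stand beside the same shares of all genes, 38.4% and 29.3% in flu1-5 ex1 and 44.0% and 28.6% in flu1-1 ex1. The ferredoxin gene FD1 rose to 779 ± 23.9 TPM in light flu1-5 ex1, against 301 ± 8.56 TPM in dark, and to 829 ± 35.5 TPM in light flu1-1 ex1, against 263 ± 9.03 TPM in dark. LFNR2, a ferredoxin-NADP reductase of leaves, had the largest fall in both lines (log2 change -0.22 and -0.37). The interaction called FD1 (-0.29), NTRA, a cytosolic and mitochondrial thioredoxin reductase (-0.16), and LFNR2 (0.14), with limma adjusted p of 0.00127, 0.0378 and 0.0326. In that test 18.3% of all genes were called lower and 11.3% higher. The FD1 call held in each of 19 alternatives. With 1 library left out, the NTRA call was lost in 10 of 12 fits and the LFNR2 call in 7 of 12.

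Of 5 peroxiredoxins outside the plastid, 4 were tested, and PRXIID had a mean under 1 TPM. In flu1-5 ex1 2 rose and 1 fell (38.4% and 29.3% of all genes), and in flu1-1 ex1 1 rose and 1 fell (44.0% and 28.6% of all genes), with medians of 0.16 and -0.14. PRXIIB, the main cytosolic form by level, rose to 217 ± 0.40 TPM in light flu1-5 ex1, against 163 ± 2.42 TPM in dark, and to 234 ± 4.44 TPM in light flu1-1 ex1, against 159 ± 2.02 TPM in dark. PRXIIC, a close copy of it, fell to 32.0 TPM in light flu1-5 ex1, against 53.5 TPM in dark, and to 17.9 TPM in light flu1-1 ex1, against 22.9 TPM in dark. Reads may be divided unevenly between PRXIIB and PRXIIC, so the estimates of both may be uncertain, which was not tested. The 1-Cys gene PER1 was low, at 3.27 and 1.72 TPM in light and dark flu1-5 ex1, where it rose, and at 1.39 and 1.83 TPM in light and dark flu1-1 ex1, where it was not called. The interaction called PER1 (0.88, limma adjusted p = 0.00989) and PRXIIB (-0.15, limma adjusted p = 0.00593), beside 11.3% of all genes called higher and 18.3% lower.

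Of 8 other plastid thiol peroxidases, glutaredoxins and methionine sulfoxide reductases, 4 rose and 3 fell in flu1-5 ex1 (38.4% and 29.3% of all genes), and 4 rose and 1 fell in flu1-1 ex1 (44.0% and 28.6% of all genes), with medians of 0.08 and 0.17. In the interaction limma called 0 of the 8, where 18.3% of all genes were called lower and 11.3% higher. Of the 8, 2 had an unadjusted p under 0.05, and that share over all genes was not computed. GPX1, a plastid glutathione peroxidase-like protein that uses thioredoxin, fell in both lines (log2 change -0.22 and -0.16). GPX7 rose in both (1.52 and 1.42), to means of 6.99 and 6.12 TPM in light.

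**Figure D4:**
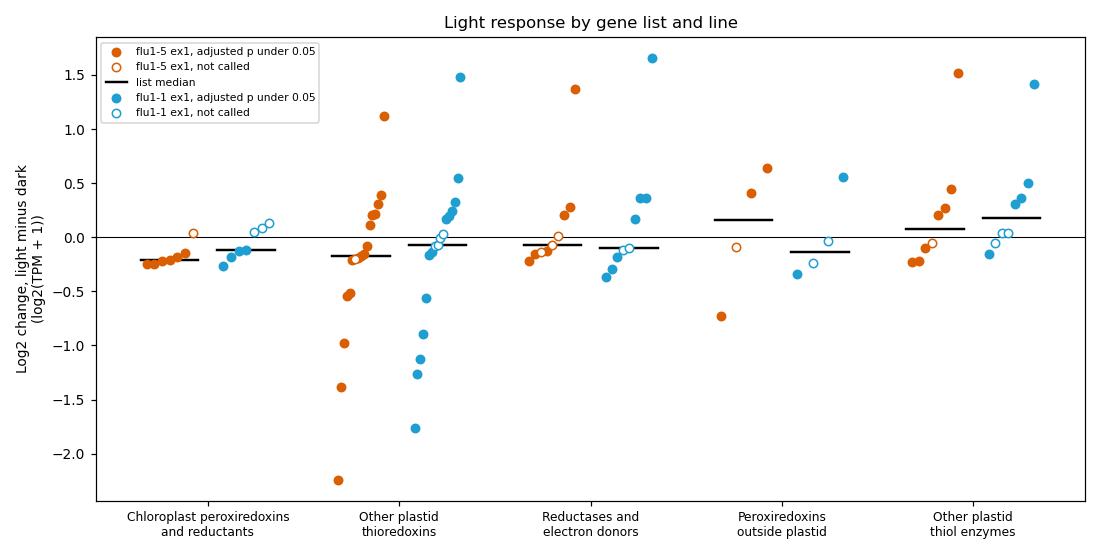
Log2 change in light (vertical axis, light minus dark) of each tested gene of the 5 gene groups in flu1-5 ex1 (orange, left) and flu1-1 ex1 (blue, right); filled points were called and black lines mark medians. The 7 chloroplast peroxiredoxins and reductants lie between -0.27 and 0.13, whereas plastid thioredoxins spread from -2.24 to 1.48.

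Genes with the most similar profile were sought over the 12 libraries, by the root mean square distance of log2 levels centred on each gene's own mean, among 17830 genes. For 2CPA these were AT1G78140, PRPL35 (AT2G24090), a plastid ribosomal protein, and GPX1, at distances of 0.031, 0.032 and 0.033, beside a median of 0.28 over all genes. For NTRC they were SIR (AT5G04590), sulfite reductase, AT5G64050, a glutamate tRNA synthetase, and HST (AT3G11945), a homogentisate prenyltransferase, at 0.037, 0.040 and 0.042. SIR averaged 215 and 240.4 TPM in light and dark flu1-5 ex1 and 218 and 204 TPM in light and dark flu1-1 ex1. For SRX, which was not called in any of the main comparisons, they were VP2 (AT1G78920), AT5G47480 and AT1G36320, at 0.045 to 0.048. The nearest genes were picked as the smallest distances, so their place far below the median was fixed by that choice. Genes that change little also lie close to each other in this measure. Among the 7 genes themselves, 2CPA was nearest to TRX x (0.048) and PRXQ (0.049), 2CPA and 2CPB stood 0.070 apart, and the widest distance was between 2CPB and SRX (0.19).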

How the data were processed

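RNA from 12 libraries (4 groups of 3) had been quantified by the authors. The deposited tables, 1 per line, give TPM for each gene identifier and library, per the file headers, along with the authors' fold of light over dark and a p-value. Each gene is listed with 1 transcript, which differed between the lines for 971 genes. Whether a value covers the whole gene or only the transcript listed was not determined. The submitters' processing notes name kallisto 0.46.2, sleuth 0.30.0 and TAIR10. TPM holds no read counts, so no depth or counting error can be given. Group labels came from titles; the genotype entry of the labels, flu1-1 throughout, was set aside, and the FLU levels separate the lines as titled.

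Values were analysed as log2(TPM + 1) with limma 3.58.1 (trend, robust; R 4.3.3), on genes averaging 1 TPM or more, two-sided, with Benjamini-Hochberg adjustment over all genes tested and a threshold of 0.05. Fold changes on this scale understate changes of low genes. Comparisons across lines used the 26684 genes listed with the same transcript in both tables. The fits were tested on simulated data with normal noise drawn independently for each library. Such data cannot show how the fits behave with shared batches or with technical replicates. Alternatives were quantile normalization, other filters and pseudocounts, a replicate block, leaving out each library, summing 2CPA with 2CPB, and the authors' p-values.

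The 7 genes and the lists were chosen with earlier results of these data known. From the lists the text names up to 4 genes with the largest called difference between the lines, and the largest called rise and fall in each line. No sequences are printed.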

Additional observations from a re-analysis of the deposited data

Results flagged for a closer look

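The light response differed between the lines, by the interaction test over all 12 libraries, for 3 of the 7 genes, all in the lower direction, where 18.3% of all genes were called lower and 11.3% higher. For PRXIIE the response in flu1-5 ex1 minus that in flu1-1 ex1 was -0.30 on the log2 scale. For NTRC it was -0.20. For 2CPA it was -0.10, a call that was lost in 15 of 19 alternatives, whereas the PRXIIE and NTRC calls held in all 19.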

How the results depend on the processing

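Over the 7 genes and 5 comparisons, 464 of 511 values under an alternative kept their direction and call, 26 lost the call, 10 gained it and 11 changed sign. The values that changed sign were all small. Under quantile normalization they were light responses of -0.058 for SRX in flu1-5 ex1, and of -0.011 for NTRC and -0.0032 for SRX in flu1-1 ex1, and differences between responses of 0.039 for PRXQ and 0.00097 for TRX x. Summing 2CPA and 2CPB gave a difference of -0.082 in place of that of 2CPB. With 1 library left out, the 2CPB difference ranged from -0.0099 to 0.034, the 2CPB value between lines in dark from -0.00056 to 0.043, and in light PRXQ ranged from -0.0099 to 0.025 and SRX from -0.069 to 0.012. In both lines the authors' p-value was under 0.05 for 7 of the 7 genes in light against dark, where limma called 4 in flu1-1 ex1 and 6 in flu1-5 ex1. Of all genes with such a p-value, 81.9% were under 0.05 in flu1-1 ex1 and 80.3% in flu1-5 ex1. That deposited p-value was also under 0.05 for 80.7% and 81.0% of genes whose deposited fold lay within 2% of 1 in flu1-5 ex1 and flu1-1 ex1. Between lines in light, 1 gene was called in place of 2 with the replicate block and with no filter, and 1 to 2 with a library left out. Deviations of same-numbered libraries correlated weakly, at -0.049 to 0.14, over 0.1 in 1 of 18 pairs. That pair was replicate 3 of light and dark flu1-1 ex1 (0.143). With the block PRXIIE was called in flu1-1 ex1 (limma adjusted p = 0.0183). The cause of these changes was not tested. Without depth, the precision of a single TPM value is unknown.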
